A study of Mus musculus with 4 samples.

Results

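The epidermal growth factor (EGF) receptor family was followed through 4 sorted fractions of mouse embryonic fibroblasts (MEFs), connective tissue cells grown from embryos, during reprogramming, the conversion of differentiated cells toward pluripotency. The genes were taken by name and comprised the receptors Egfr, Erbb2, Erbb3 and Erbb4, the ligands Ereg, Areg, Hbegf, Tgfa and Btc, and the adaptor Grb7. Of these 10 genes, 9 had a probe set under their own symbol in the platform annotation, 20 probe sets in all, out of 18193 genes. No probe set was listed for Areg, which encodes amphiregulin, and its level is not analysed here. Cells were fixed, permeabilized, stained inside for the reprogramming factors Oct4 (gene Pou5f1) and Klf4 and for the epithelial adhesion molecule EpCAM, and sorted. In the order of the gates, the fractions were Oct4-negative cells, then Oct4+Klf4-negative cells, then Oct4+Klf4+EpCAM-negative cells, then Oct4+Klf4+EpCAM+ cells, each read on 1 Affymetrix array. The labels give no strain, genotype, introduced factors or day for any fraction, and leave unsaid whether all 4 came from 1 culture.

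EGF family ligands are made as membrane-bound precursors, cut free by ADAM proteases, and bind receptors that then pair up and phosphorylate each other. Erbb2 has no known ligand of its own and serves as a partner, while Erbb3 has a weak kinase and signals through the partner it pairs with, above all Erbb2, after binding a neuregulin. Egfr binds the ligands listed above, and the adaptor protein Grb7 docks on phosphorylated receptors. The downstream RAS-MAPK cascade induces its own feedback inhibitors. Egfr and its ligands are active in fibroblasts and in epithelia, and Erbb3 with Erbb2 is best known from epithelial, glial and heart tissue.

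All levels below are log2 values of the robust multi-array average (RMA), so a difference of 1 is 2-fold. No test is possible with 1 array per fraction, and precision is limited by that number. The size rule called a gene when 2 fractions differed by 2-fold or more and the brighter level was no lower than 4.53, the floor, which is the median of all values. The background ceiling was 2.94, the highest reading of 27 bacterial control probe sets, kept because they read below the floor on every array. The words "at least" mark a fold whose dimmer side did not exceed this ceiling. As gauges of scatter within the arrays, the 14 spiked hybridization controls differed between neighbouring fractions by -0.31 to 0.09, and the median SD between probe sets of 1 gene was 0.12 to 0.17 over 5708 genes. Neither gauge holds variation between cultures or sorts. Levels of Pou5f1 were 7.59, 11.48, 11.66 and 11.70 in gate order, of Epcam 4.63, 5.20, 6.54 and 9.52, and of the brighter Klf4 probe set 7.32, 6.24, 10.20 and 10.60, while the other Klf4 probe set ran the opposite way, at 6.95, 5.69, 2.67 and 3.20. Among fibroblast markers, 7 of the 9 on the array reached the floor in the Oct4+Klf4+EpCAM+ fraction, with a median level of 5.26, against 8 of 9 and a median of 8.48 in the Oct4-negative fraction. In sorted populations read as a whole, fewer cells of a type and less RNA per cell cannot be told apart.

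Among the members with a difference past 2-fold, Erbb3, Grb7 and Ereg had no promoter sequence at hand, and that of Hbegf was left out. The promoters of Egfr, Erbb2 and Btc are shown. They come from RefSeq (build GRCm38.p6), run 5′ to 3′ along the gene from 250 bases before its start to 50 bases after, and lie at chr11:16751953-16752252 on the plus strand, chr11:98412234-98412533 on the plus strand and chr5:91402945-91403244 on the minus strand. Capitals mark CACCC, or GGGTG where it lies on the opposite strand, the core letters of the sites that Klf proteins bind.
Egfr: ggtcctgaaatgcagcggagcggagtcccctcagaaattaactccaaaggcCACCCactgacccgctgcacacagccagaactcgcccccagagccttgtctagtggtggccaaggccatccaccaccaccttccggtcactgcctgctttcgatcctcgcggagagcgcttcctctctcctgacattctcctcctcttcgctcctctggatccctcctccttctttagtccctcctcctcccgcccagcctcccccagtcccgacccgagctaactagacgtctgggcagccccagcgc
Erbb2: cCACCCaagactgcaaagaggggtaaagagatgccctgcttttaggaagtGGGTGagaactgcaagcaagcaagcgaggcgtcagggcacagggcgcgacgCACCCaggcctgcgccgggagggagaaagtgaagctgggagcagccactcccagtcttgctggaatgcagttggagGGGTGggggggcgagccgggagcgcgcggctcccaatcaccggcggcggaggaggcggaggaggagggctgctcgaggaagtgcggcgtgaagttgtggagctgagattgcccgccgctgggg
Btc: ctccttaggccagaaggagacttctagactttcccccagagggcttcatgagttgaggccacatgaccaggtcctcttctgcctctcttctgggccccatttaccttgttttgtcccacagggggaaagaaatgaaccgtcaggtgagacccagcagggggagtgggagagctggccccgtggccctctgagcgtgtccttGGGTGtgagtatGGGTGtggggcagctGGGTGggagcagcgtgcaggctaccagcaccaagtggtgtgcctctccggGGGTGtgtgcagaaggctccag
These letters occurred 4 times in the Erbb2 window, 4 times in the Btc window, all on the opposite strand, and 1 time in the Egfr window. Over all 32851 promoter windows of this length, 57.5% held at least 1 copy and 3.10% at least 4. The AP-1 letters TGANTCA, searched on both strands, were in 7.81% of all windows and in none of the 6 member windows kept. A match describes the letters of this window and is not evidence of binding.

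Among the receptors and their adaptor, Erbb3 and Grb7 differed most between fractions. Erbb3, the kinase-poor neuregulin receptor, was read at 4.63 in Oct4-negative, 5.27 in Oct4+Klf4-negative, 8.43 in Oct4+Klf4+EpCAM-negative and 9.86 in Oct4+Klf4+EpCAM+ cells. Its order followed the gates, with both Klf4-positive fractions far above the other pair and the EpCAM+ fraction at the top. Along the gates Grb7 was read at 2.87, 3.69, 6.74 and 8.73, the first of them below the background ceiling. At the Klf4 step, which sets Oct4+Klf4+EpCAM-negative cells against Oct4+Klf4-negative cells, both genes were called higher, Erbb3 by 8.96-fold and Grb7 by 8.26-fold. They were called higher again at the EpCAM step, Oct4+Klf4+EpCAM+ cells against Oct4+Klf4+EpCAM-negative ones, Erbb3 by 2.68-fold and Grb7 by 3.97-fold. The Oct4 step, Oct4+Klf4-negative cells against Oct4-negative ones, put Erbb3 1.56-fold and Grb7 at least 1.68-fold higher, and neither was called.

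**Figure D1:**
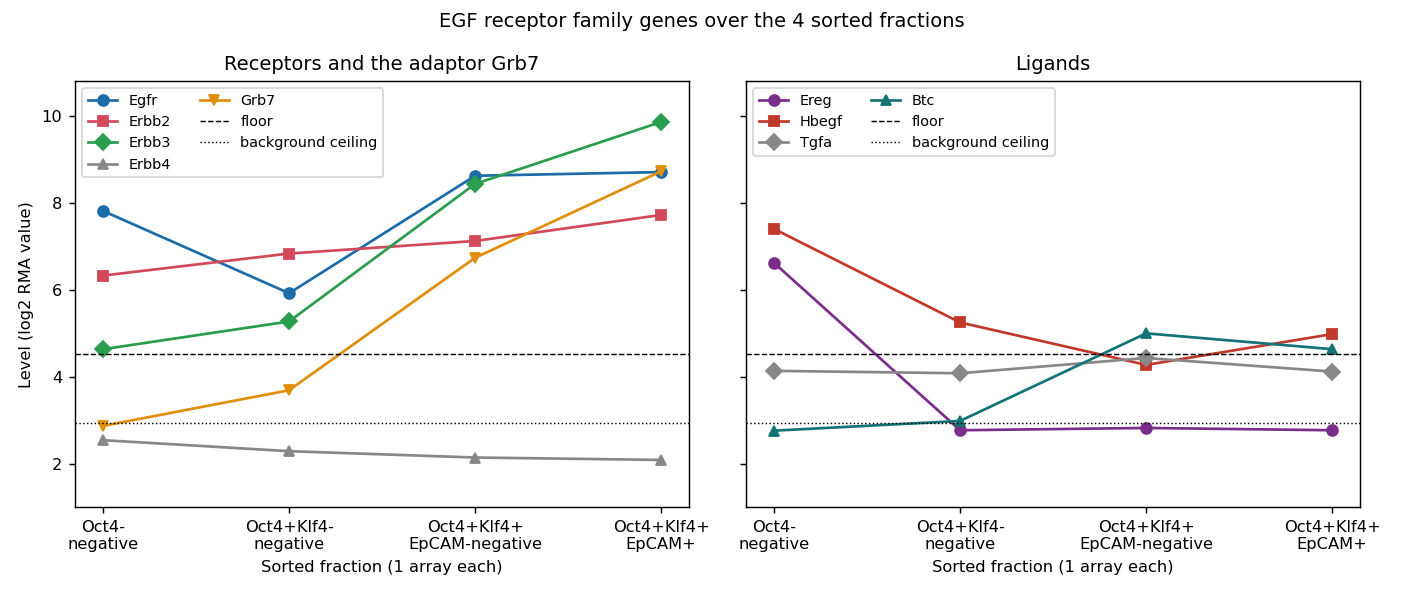
Levels (log2 RMA value) of the 9 measured members in the 4 sorted fractions, 1 array each, in gate order, with receptors and Grb7 on the left and ligands on the right. Erbb3 and Grb7 climb at the Klf4 and EpCAM gates to 9.86 and 8.73, Egfr is lowest at 5.92 in Oct4+Klf4-negative cells, and Ereg stands above the background ceiling only in Oct4-negative cells. Heights of different genes are not comparable, since each probe set has its own response.

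Across the whole range, the Oct4+Klf4+EpCAM+ fraction exceeded the Oct4-negative one by 37.4-fold for Erbb3 and by at least 55.1-fold for Grb7. Centred on their own means, the profiles of Erbb3 and Grb7 differed by a root mean square of 0.25 over the 4 arrays, the closest pair among the 7 called members. The second Erbb3 probe set, with levels of 2.80, 2.87, 4.97 and 7.13, gave log2 differences of 2.10 at the Klf4 step and 2.16 at the EpCAM step. Both probe sets therefore put the gene past 2-fold at each of these gates, in the same direction.

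Erbb2, the partner receptor, varied much less. It had levels of 6.33, 6.83, 7.12 and 7.72 in gate order, and no step reached 2-fold, with log2 differences of 0.51, 0.29 and 0.60. Between the ends it was 2.63-fold higher in Oct4+Klf4+EpCAM+ than in Oct4-negative cells, which passed the size rule. Each neighbouring pair of fractions was thus within 2-fold, and the order of the 4 levels rests on steps of 1.22-fold to 1.51-fold without replicates. Erbb2, Erbb4, Grb7 and Ereg had 1 probe set each, so their values have no second reading on the array. Erbb4, a neuregulin receptor of heart and nervous tissue, had levels of 2.54, 2.29, 2.14 and 2.09, below the background ceiling on every array.

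Egfr, the founding receptor of the family, was the one receptor lowest in the Oct4+Klf4-negative fraction. Its levels were 7.81, 5.92, 8.62 and 8.71 in gate order. The Oct4+Klf4-negative fraction was 3.71-fold lower than the Oct4-negative one, and the Oct4+Klf4+EpCAM-negative fraction was 6.50-fold higher than the Oct4+Klf4-negative one. Both Klf4-positive fractions lay within 1.06-fold of each other, and the top one was 1.86-fold above the Oct4-negative fraction, short of the size rule. Of the 7 Egfr probe sets, 6 reached the floor, with log2 differences of -1.89 to -0.44 at the Oct4 step and 0.83 to 2.70 at the Klf4 step. By these, 5 of the 6 passed 2-fold at both gates, and all 6 went the same way. The mean over all 7 gave smaller log2 differences, -1.22 and 1.74. The least variable of the 6 had levels of 6.48, 6.04, 6.87 and 6.87.

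**Figure D2:**
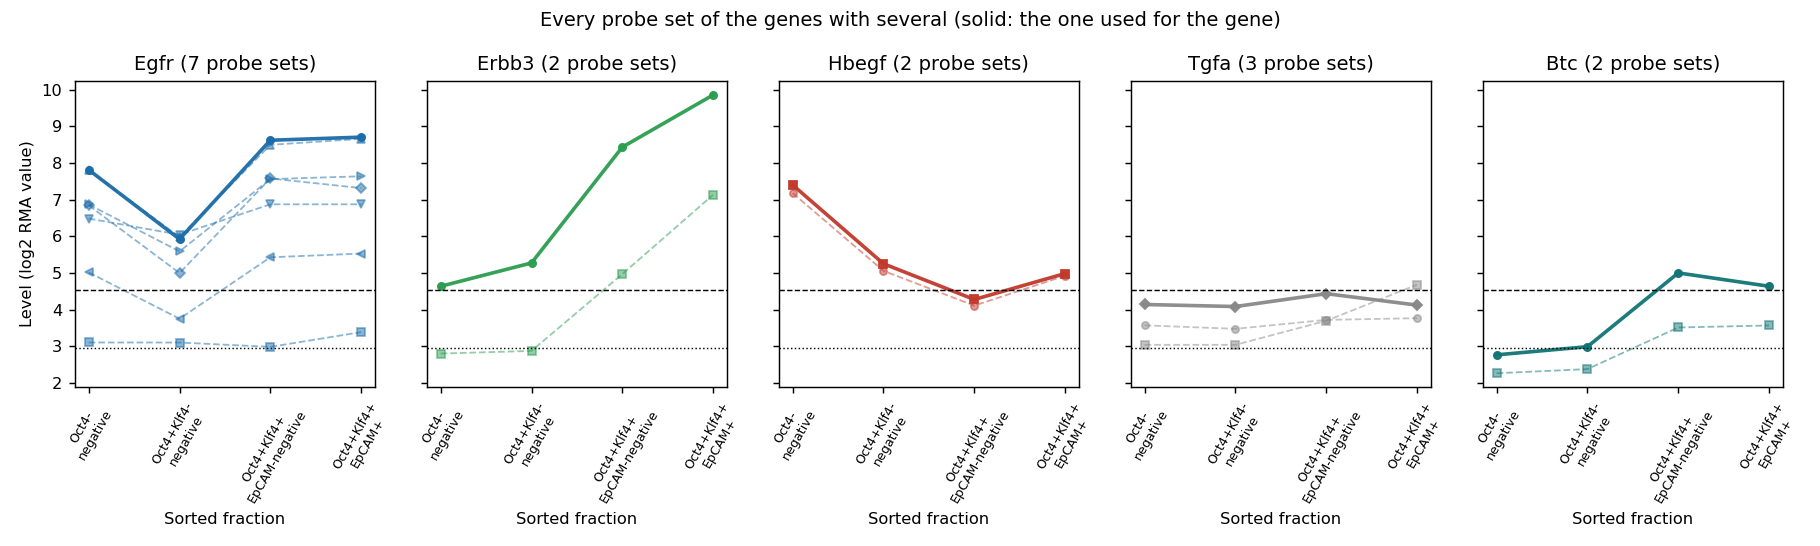
Levels (log2 RMA value) of every probe set of the 5 members that have several, in gate order, with the probe set used for the gene as a solid line, the floor dashed and the background ceiling dotted. The 6 Egfr probe sets reaching the floor all dip in Oct4+Klf4-negative cells, both Erbb3 probe sets climb, both Hbegf probe sets are highest in Oct4-negative cells, and the 3 Tgfa probe sets differ from each other.

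The ligands split into a pair that was highest in Oct4-negative cells and 1 that was higher in Klf4-positive cells. Ereg, which encodes epiregulin, had a level of 6.62 in Oct4-negative cells and of 2.77, 2.82 and 2.77 in the Oct4-positive fractions in gate order. It was read above the background ceiling in the Oct4-negative fraction alone, and all 3 Oct4-positive fractions fell below that ceiling. It was thus at least 12.8-fold lower in Oct4+Klf4-negative than in Oct4-negative cells. Hbegf, the heparin-binding ligand whose precursor is also the diphtheria toxin receptor in primates, had levels of 7.40, 5.25, 4.27 and 4.98 in gate order. It was 4.44-fold lower in Oct4+Klf4-negative than in Oct4-negative cells. At the Klf4 step its log2 difference of -0.98 fell just short of 2-fold, and at the EpCAM step it was 0.71, so the order among the 3 Oct4-positive fractions is not separated by the size rule for neighbouring gates. Its other probe set gave log2 differences of -2.12, -0.95 and 0.82 at the 3 gates.

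Btc, which encodes betacellulin, had levels of 2.76, 2.98, 5.0 and 4.63 in gate order. It was 4.04-fold higher in Oct4+Klf4+EpCAM-negative than in Oct4+Klf4-negative cells, while the Oct4 and EpCAM steps, with log2 differences of 0.22 and -0.36, were not called. Its second probe set, below the floor everywhere, had levels of 2.26, 2.37, 3.51 and 3.56. Averaged, both probe sets gave a log2 difference of 1.58 at the Klf4 step, which was not called since the mean stayed below the floor. Tgfa, which encodes transforming growth factor alpha, gave no single answer. The probe set used for the gene had levels of 4.14, 4.08, 4.43 and 4.12, below the floor throughout. A second one had levels of 3.04, 3.04, 3.69 and 4.68 and passed the floor in Oct4+Klf4+EpCAM+ cells alone, where it stood 3.12-fold above the Oct4-negative fraction. The remaining Tgfa probe set ranged over 3.47 to 3.76.

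By count, the Oct4 step called 3 of the 5 measured members, all lower in Oct4+Klf4-negative cells, where 5.14% of 10758 genes were called lower and 3.81% higher. Ereg, Hbegf and Egfr were the 3, and the median log2 difference of the measured members was -1.89, against 0.02 over all genes that could be called. At the Klf4 step 4 of 6 were called, all higher in Oct4+Klf4+EpCAM-negative cells (Erbb3, Grb7, Egfr and Btc), where 8.82% of 10946 genes were called higher and 7.18% lower. The members' median was 2.36, against 0.03 over all genes. At the EpCAM step 2 of 6 were called, Grb7 and Erbb3, both higher in Oct4+Klf4+EpCAM+ cells, where 3.28% of 10833 genes were called higher and 1.88% lower. The members' median was 0.65, against 0.00 over all genes. Between the ends, which share their arrays with the first and last steps, 4 of 7 were called higher (Grb7, Erbb3, Btc and Erbb2) and 2 lower (Ereg and Hbegf), where 12.1% of 11204 genes were called higher and 11.0% lower. A member counts as measured only where its higher level reached the floor, so one that entered through its brighter fraction is favoured for a call, and these shares describe the genes that passed and not all 10.

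**Figure D3:**
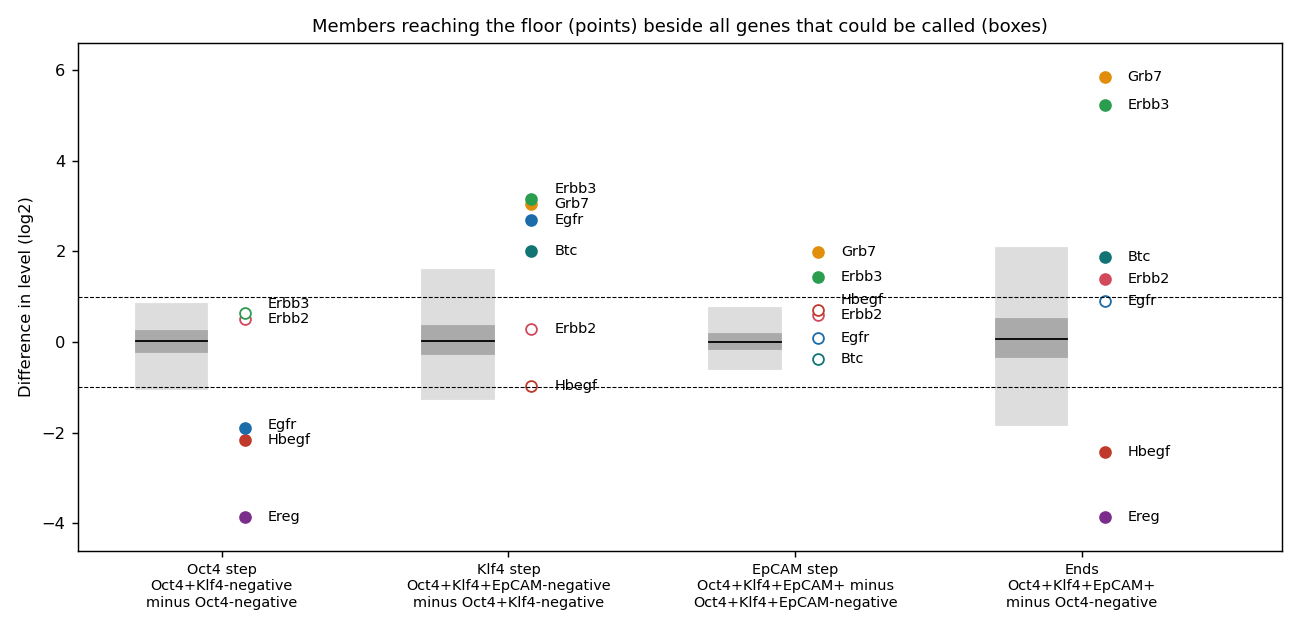
Differences in level (log2) at the 3 gates and between the ends for the members reaching the floor (filled points where called, open where not), beside all genes that could be called (dark box 25th to 75th percentile, light box 5th to 95th, line at the median). Dashed lines mark 2-fold. Ereg, Hbegf and Egfr lie below the light box at the Oct4 step, and Erbb3, Grb7, Egfr and Btc above it at the Klf4 step, while the points of Ereg, and those of Grb7 and Btc between the ends, have a dimmer side below the background ceiling and stand for bounds, not measured sizes.

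Markers of several cell types, epithelium among them, moved at the gates where Erbb3 and Grb7 did. Of all genes tested, 8.82% were called higher and 7.18% lower at the Klf4 step, with a median log2 difference of 0.03. At the EpCAM step these shares were 3.28% and 1.88% (median 0.00), and at the Oct4 step 3.81% and 5.14% (median 0.02). A marker was measured at a gate only where its higher level reached the floor, which favours a call. Of the simple epithelium markers, 8 of 10 measured were higher and 0 lower at the Klf4 step (median log2 difference 2.29), and 11 of 14 were higher and 0 lower at the EpCAM step (median 2.0). At the Oct4 step 2 of 6 were lower and 0 higher in Oct4+Klf4-negative cells (median -0.09), the keratin genes Krt18 by 3.72-fold and Krt19 by 4.90-fold. Krt18 lay within 1.08-fold between the ends. Cdh1, which encodes E-cadherin, had levels of 3.39, 4.40, 7.65 and 9.66 in gate order. The median level of the 14 markers was 4.06, 4.45, 6.25 and 8.47, and the number at the floor 6, 6, 10 and 14. Keratinocyte markers were higher in 4 of 7 at the Klf4 step and 2 of 7 at the EpCAM step, with Trp63, Krt15, Lor and Col17a1 below the floor on every array. Schwann and neural crest glia, where Erbb3 is also used, were covered by 4 markers on the array, of which Sox10 lay at 4.49 to 4.67 and Foxd3 and Gfap did not exceed the background ceiling on any array. Of 6 endothelial markers, 3 were measured at the Klf4 step and all 3 were higher, Cldn5 by 9.28-fold, Flt1 by 5.79-fold and Tek by 3.32-fold, while Kdr stayed below the background ceiling on every array and Pecam1 and Cdh5 did not reach the floor. Neuronal markers were higher in 5 of 6 at the Oct4 step (median log2 difference 2.30), with Nefl, a neurofilament gene, 50.7-fold higher. At the Klf4 step 2 of 6 neuronal markers were higher, Tubb3 by 19.8-fold and Stmn2 by 18.9-fold, and 4 were lower (median -2.34). The part that a change in cell types has in these levels was not tested.

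Beside Ereg and Hbegf at the Oct4 step, 3 of 8 fibroblast markers were lower and 1 was higher in Oct4+Klf4-negative cells (median log2 difference -0.95). Of all genes tested there, 5.14% were called lower and 3.81% higher. The fibroblast markers were lower in more cases at the Klf4 step, 7 of 8 with 0 higher (median -2.26), where 7.18% of all genes were called lower. At the EpCAM step 3 of 7 were lower and 0 higher (median -0.89), where 1.88% were called lower. Between the ends 8 of 8 were lower, where 11.0% of all genes were. Among 9 macrophage and leukocyte markers, 3 reached the floor anywhere. Cd68, a lysosomal protein of macrophages and other cells, had a level of 5.95 in Oct4+Klf4-negative against 7.76 in Oct4-negative cells, and Cd14 a level of 3.21 against 4.63. The third, Laptm5, a lysosomal protein of blood cells, went the other way, with levels of 3.81, 4.69, 9.50 and 8.38 in gate order, 28.0-fold higher at the Klf4 step. Of the other 6, Csf1r was at 3.37 in the Oct4-negative fraction, above the background ceiling, while Ptprc, Adgre1, Itgam, Tyrobp and Lyz2 were at 2.0, 2.36, 2.30, 2.68 and 2.92, all below it. Beside the low Egfr level of the Oct4+Klf4-negative array, its Gapdh control probe sets differed by 1.30 between the 3′ and 5′ ends, against 0.97 to 1.04 on the other arrays, while those of Actb differed by -0.07 to -0.05 on all 4. The part of RNA quality in the Egfr level was not tested.

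The remaining EGF family ligands were mostly dim. Of 6 (Egf, Epgn, Nrg1, Nrg2, Nrg3 and Nrg4), 2 reached the floor on any array. Nrg1, a neuregulin that binds Erbb3 and Erbb4, had levels of 5.18, 3.95, 2.57 and 2.73 in gate order, and was 2.34-fold lower in Oct4+Klf4-negative than in Oct4-negative cells and at least 4.72-fold lower in Oct4+Klf4+EpCAM+ than in Oct4-negative cells. Both Klf4-positive fractions, where Erbb3 was highest, read Nrg1 below the background ceiling. Nrg2 stayed between 5.09 and 5.37. Of the genes that shed ligands, Adam17, the main protease for Ereg, Hbegf and Tgfa precursors, and Adam10, which cuts the Btc precursor, stayed within 1.30-fold between neighbouring fractions. Adam19 was the one member of that list called at a gate, 2.92-fold lower in Oct4+Klf4-negative than in Oct4-negative cells, among 7 measured (median log2 difference -0.05). There 5.14% of all genes tested were called lower and 3.81% higher, and 7 genes are too few to set 1 call apart from these shares. Rhbdf2, a cofactor of Adam17, was 2.03-fold higher in Oct4+Klf4+EpCAM+ than in Oct4-negative cells, where 12.1% of all genes tested were called higher and 11.0% lower. Its relative Rhbdf1 had levels of 7.55, 6.59, 6.38 and 7.32 in gate order and was not called in any comparison.

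Inhibitors of the receptors were measured in all 10 cases. At the Oct4 step 3 were lower in Oct4+Klf4-negative cells and 0 higher (median log2 difference -0.06, against 0.02 over all genes), where 5.14% of all genes tested were called lower. Errfi1, an inhibitor that binds the receptor kinase and is itself induced by EGF signals, had levels of 8.71, 6.59, 6.62 and 7.63 in gate order, 4.35-fold lower at the Oct4 step and 2.02-fold higher at the EpCAM step. Lrig1, a membrane protein that promotes receptor breakdown, was 4.06-fold lower in Oct4+Klf4-negative than in Oct4-negative cells, with levels of 8.25, 6.23, 6.59 and 6.63. Socs5 was the third, 2.19-fold lower. At the Klf4 step 1 was called, Cblb, a ubiquitin ligase for activated receptors, 2.03-fold higher in Oct4+Klf4+EpCAM-negative cells, and 1 of 10 is near the 8.82% of all genes called higher there.

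Among 18 adaptors and effectors, all measured, the called genes went different ways. At the Oct4 step 3 were lower and 1 higher in Oct4+Klf4-negative cells (median log2 difference 0.23), where 5.14% of all genes were called lower and 3.81% higher, and at the Klf4 step 3 were lower in Oct4+Klf4+EpCAM-negative cells and 0 higher (median -0.16), where the shares were 7.18% lower and 8.82% higher. Grb14, a relative of Grb7 that dampens insulin signalling, had levels of 7.41, 9.94, 6.10 and 5.34 in gate order, 5.78-fold higher at the Oct4 step and 14.4-fold lower at the Klf4 step. The third gene of that adaptor family, Grb10, stayed between 10.39 and 11.28. So of the 3 Grb7-type adaptors, Grb7 was highest in Oct4+Klf4+EpCAM+ cells and Grb14 in Oct4+Klf4-negative cells. Eps8, an EGF receptor substrate that acts on actin, had levels of 8.30, 4.86, 5.82 and 6.32, and was 10.9-fold lower at the Oct4 step. Vav3 was 5.68-fold lower there. The regulatory subunits of phosphoinositide 3-kinase Pik3r1 and Pik3r3 were 5.32-fold and 2.67-fold lower at the Klf4 step. Grb2 and Shc1, the adaptors that link the receptors to RAS, had levels of 7.27 to 7.53 and 8.38 to 9.10.

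Of 11 genes of the RAS-MAPK cascade, 6 had a probe set under their own symbol and the others are not analysed here. None of the 5 measured (Nras, Araf, Braf, Map2k1 and Map2k2) differed by 2-fold in any comparison. The shares of all genes called were largest between the ends, at 12.1% higher and 11.0% lower. With such shares, 0 calls among 5 genes does not set the cascade apart. The feedback inhibitors and target genes of the cascade varied more. Of 11 feedback inhibitors, 5 were lower and 0 higher in Oct4+Klf4-negative cells at the Oct4 step (median log2 difference -0.96, against 0.02 over all genes). At the Klf4 step 3 were higher and 0 lower in Oct4+Klf4+EpCAM-negative cells (median 0.25, against 0.03). The shares of all genes were 5.14% lower and 3.81% higher at the Oct4 step, and 8.82% higher and 7.18% lower at the Klf4 step. Dusp6, a phosphatase for ERK, had levels of 8.81, 6.95, 7.31 and 6.55 in gate order. Spry4, a Sprouty inhibitor, had levels of 5.49, 4.33, 6.46 and 6.44, lowest where Egfr was lowest. Dusp4, another ERK phosphatase, was 6.68-fold higher at the Klf4 step, with levels of 5.21, 6.0, 8.74 and 8.38, and Spred3 3.07-fold higher. None of the 11 was called at the EpCAM step, where 3.28% of all genes were called higher and 1.88% lower.

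Of the MAPK target genes, 4 of 10 measured were lower and 0 higher at the Oct4 step (median log2 difference -0.75, against 0.02 over all genes). There 5.14% of all genes were called lower and 3.81% higher. At the Klf4 step 4 target genes were higher and 1 lower (median 0.62, against 0.03), where 8.82% of all genes were called higher and 7.18% lower. Phlda1, an immediate target of growth factor signals, had levels of 9.16, 6.94, 9.60 and 10.18 in gate order, and Plaur, the urokinase receptor, 7.65, 5.51, 7.63 and 8.22. Both were called lower at the Oct4 step, by 4.64-fold and 4.40-fold, and higher at the Klf4 step, by 6.29-fold and 4.35-fold, as Egfr was. Ier3 and Fosl1 were 5.04-fold and 3.14-fold lower at the Oct4 step. The ETS factor genes Etv4 and Etv5 were 3.11-fold and 2.97-fold higher at the Klf4 step, whereas Fos was 2.79-fold lower there. FGF and other receptors act through the same cascade, and the arrays do not read phosphorylation.

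**Figure D4:**
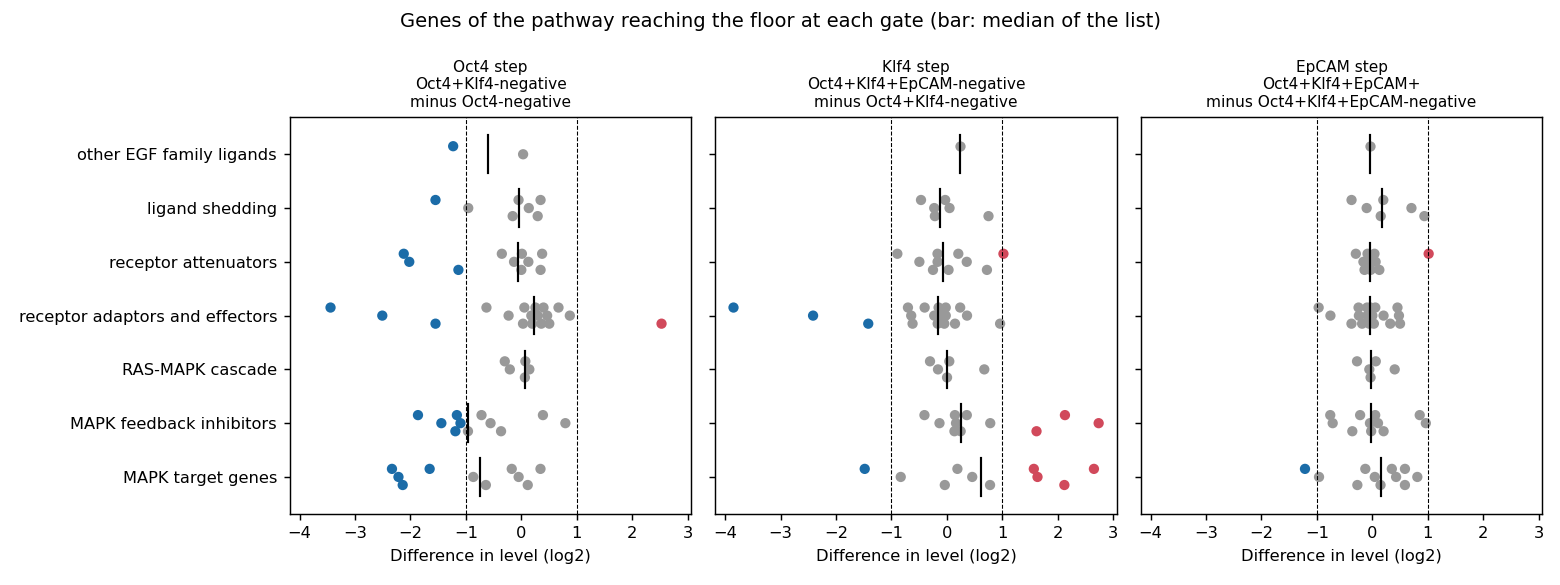
Differences in level (log2) at the 3 gates for genes of 7 pathway lists reaching the floor, with the list's median as a bar and dashed lines at 2-fold (red higher, blue lower in the first-named fraction). Calls among feedback inhibitors and target genes lie below 0 at the Oct4 step, and all but Fos lie above 0 at the Klf4 step, while the RAS-MAPK cascade stays within 2-fold.

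Position along the chromosome was compared for genes that neighbour the members, in the gene order of GRCm38.p6. Erbb2 and Grb7 lie on chromosome 11 with Mien1 alone between them. Mien1 had levels of 7.98, 7.79, 8.37 and 8.81 in gate order, and it was 1.78-fold higher in Oct4+Klf4+EpCAM+ than in Oct4-negative cells, against 2.63-fold for Erbb2 and at least 55.1-fold for Grb7. The next genes on either side, Pgap3 and Ikzf3, did not reach the floor. On chromosome 5 the ligand genes Epgn, Ereg, Areg and Btc follow each other directly. Epgn did not exceed the background ceiling on any array, Ereg was read above it in Oct4-negative cells alone, and Btc reached the floor in both Klf4-positive fractions. The adjoining Parm1, a membrane mucin gene, was highest in Oct4+Klf4-negative cells, with levels of 5.07, 7.67, 6.17 and 5.55, a pattern unlike that of either ligand. Around Erbb3 on chromosome 10, the 3 genes on each side were all measured, and 3 of the 6 were called higher somewhere. All 3 were called between the ends, where 12.1% of all genes tested were called higher and 11.0% lower. Suox, the sulfite oxidase gene, had levels of 3.97, 4.54, 5.83 and 6.90 in gate order and was called in the same comparisons as Erbb3, 2.43-fold higher at the Klf4 step, 2.10-fold at the EpCAM step and 7.59-fold between the ends. Ikzf4, a zinc finger factor gene, was 2.83-fold higher at the Oct4 step and 4.89-fold between the ends, and Zc3h10 was 2.05-fold higher between the ends. The genes directly beside Erbb3 were not called in any comparison, Pa2g4, which encodes an Erbb3-binding protein, at levels of 11.23 to 11.57 and the ribosomal protein gene Rps26 at 11.73 to 11.89, nor was Rpl41.

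The genes whose profiles came closest to each called member were found by the root mean square difference of mean-centred levels over the 4 arrays, among 11010 genes. For Egfr these were Synpo (0.16), an actin-associated protein, the tetraspanin gene Cd9 (0.16) and Klrg2 (0.20). Erbb3 had Capn8 (0.13) and Gkn1 (0.14), known from stomach epithelium, and Sall4 (0.19), a factor of pluripotent cells. Grb7 shared Capn8 (0.13) and was followed by Crb3 (0.15), which sets epithelial polarity, and Cwh43 (0.15). Closest to Erbb2 were Plbd1 (0.04), Arhgef5 (0.06) and Fam220a (0.07). For Ereg they were Ltbp2 (0.09) and Col6a2 (0.20), of the extracellular matrix, and the actin-oxidizing enzyme gene Mical2 (0.19). Hbegf had Adcy7 (0.10), an adenylyl cyclase, Cdh26 (0.14) and Vav3 (0.19), and Btc had Zfp423 (0.06), Castor2 (0.09) and Lonrf3 (0.09). With 4 arrays such likeness is a description of these profiles.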

How the data were processed

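RNA of 4 sorted fractions, 1 array each, was recovered with the RecoverAll kit and amplified with the Ovation Pico WTA kit, per the labels' protocols. The authors deposited log2 levels of 45101 probe sets, made by RMA per the submitters' processing notes, with no RMA version given in the sources used here. RMA makes arrays comparable by a shared distribution, so a change in total RNA is not seen. Depth has no meaning for arrays.

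From these values, 34945 probe sets with 1 gene symbol in the platform annotation were kept, 932 with several and 9160 without a listed symbol were left out, as were 64 controls. A gene was its probe set with the highest mean level. Of the named probe sets, 34741 had their gene identifier in the RefSeq table of GRCm38.p6, which was used for gene order. Python 3.11.15 with pandas 2.3.3 and numpy 2.4.6 was used, and calls by the size rule were tested on simulated levels. The simulated scatter was of the size seen between probe sets of 1 gene. It held no variation between cultures or sorts, so it cannot tell how the calls would repeat. No test between fractions was possible with 1 array each.

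The members, gene lists and comparisons were chosen with earlier results of these data known. All 10 members were named, with the 3 most similar profiles of each called member, leaving out uncharacterized genes. Genes of the 14 fixed lists and the 3 neighbours on each side of a member were compared, and those named are a selection made with their values seen. Alternatives covered the probe set of a gene, the floor, the size rule and the scaling of the arrays.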

Additional observations from a re-analysis of the deposited data

How the results depend on the processing

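The number of called members at the Oct4 step (3) and between the ends (6) stayed within 1.5 times under all 7 alternatives tried. At the Klf4 step the count was 4, and it was 2 with a floor raised to the 75th percentile, which Btc and Grb7 do not reach there. At the EpCAM step the count was 2, and it was 4 with a 1.5-fold rule and 1 with a 3-fold rule. Of the log2 differences of single members, 24 of 36 moved by less than the probe set scatter with the mean of all probe sets. Those of Erbb2, Erbb4, Grb7 and Ereg, with 1 probe set each, could not move and are counted among the 24. The 12 that moved further were all of Egfr, Erbb3, Tgfa and Btc, so the mean checks only genes with several probe sets. None of the called differences changed sign there. All 36 stayed within the scatter with arrays centred on their median and with the brightest probe set without suffix. Those 2 of the 7 alternatives are no check of single differences. Centring shifted an array by at most 0.034, and the brightest probe set of each member already had no suffix. No paired analysis was possible because each fraction had 1 array. No value has a replicate check, and levels near the background ceiling bound folds from below.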
